A study of Mus musculus with 9 samples.

Results

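VL30 elements and murine leukaemia virus (MLV) relatives, 2 groups of mouse endogenous retroviruses, were followed through the RNA of C57BL/6 mouse embryonic stem cells (ESCs) with and without telomerase. They were taken from the table of transposable element copies by repeat name: every name that starts with MMVL30 or MuLV, and RLTR4 or RLTR6 names with no further digit. The rule found 1360 of 623916 copies under 8 of 1034 repeat names, and it used no measured value. Of these copies, 983 were assigned by repeat name to the VL30 branch, namely MMVL30-int (297 copies), RLTR6-int (318), RLTR6_Mm (171), RLTR6B_Mm (165) and RLTR6C_Mm (32). The other 377 copies were assigned to the MLV branch, namely MuLV-int (43), RLTR4_MM-int (148) and RLTR4_Mm (186). This split by name was not tested. Names ending in -int are the internal parts of a provirus, and the others are its long terminal repeats (LTRs).

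RNA was sequenced in 9 libraries, 3 each of G4 Terc-/- ESCs, G1 Terc-/- ESCs and WT ESCs. Terc is the RNA template of telomerase. G4 Terc-/- ESCs came from blastocysts of intercrossed G3 Terc-/- mice, G1 Terc-/- ESCs from intercrosses of heterozygous mice, and WT ESCs from the same strain, and all were early-passage lines freed of feeder cells before total RNA was taken. As far as the sources state, a group is 1 line, so that line and generation cannot be told apart, and the labels do not say that libraries of a group are separate cultures, so a p-value covers just the scatter among the libraries, which may be technical. The table has no rows for genes, and Terc itself was not measured here.

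A provirus is a retroviral genome copied into a chromosome, with internal genes between a pair of LTRs, and the LTR holds the promoter from which its RNA starts. MLV is a gammaretrovirus whose endogenous relatives in the mouse include a few intact proviruses, and ESCs are known for silencing incoming MLV through the zinc finger protein Zfp809, the corepressor Trim28 and the histone methyltransferase Setdb1. VL30 elements carry MLV-like packaging signals but no intact protein genes, and in the mouse their RNA is known to be packaged into MLV particles and to answer to growth factors and hypoxia. In the text, a locus is the set of member copies on 1 strand within 2000 bp of each other, which stands for a provirus or what is left of it.

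The following sequences show what such elements look like where an annotated transcript starts in them, and are shown because the first of them lies in the VL30 locus with the largest fall among the loci named here. They are RefSeq promoter windows on GRCm38.p6, the mm10 assembly, running from 250 bases before to 50 bases after the start, and are written in the direction of transcription, with a TATAA motif in capitals. The window of the long non-coding RNA Urml (chr13:68234682-68234981, minus strand) lies with all of its 300 bases in an MMVL30-int copy, that is, in the internal part and not in an LTR, and holds no TATAA. The window of Gm40826 (chr13:17685729-17686028, minus strand) lies wholly in an RLTR6_Mm LTR, and that of Gm10476 (chr12:22467206-22467505, minus strand) lies with 281 of its 300 bases in an RLTR6B_Mm LTR.
Urml: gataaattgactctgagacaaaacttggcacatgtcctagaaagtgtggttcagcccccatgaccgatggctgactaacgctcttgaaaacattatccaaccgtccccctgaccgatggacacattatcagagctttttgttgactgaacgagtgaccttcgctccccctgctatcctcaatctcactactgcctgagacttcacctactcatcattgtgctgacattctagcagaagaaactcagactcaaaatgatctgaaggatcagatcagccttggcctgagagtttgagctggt
Gm40826: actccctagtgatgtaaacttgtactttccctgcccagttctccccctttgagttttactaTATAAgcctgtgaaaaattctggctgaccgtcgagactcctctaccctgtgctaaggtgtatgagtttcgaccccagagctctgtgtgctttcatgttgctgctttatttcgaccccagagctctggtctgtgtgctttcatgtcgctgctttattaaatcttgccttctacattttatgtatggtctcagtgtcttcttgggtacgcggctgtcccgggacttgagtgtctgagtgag
Gm10476: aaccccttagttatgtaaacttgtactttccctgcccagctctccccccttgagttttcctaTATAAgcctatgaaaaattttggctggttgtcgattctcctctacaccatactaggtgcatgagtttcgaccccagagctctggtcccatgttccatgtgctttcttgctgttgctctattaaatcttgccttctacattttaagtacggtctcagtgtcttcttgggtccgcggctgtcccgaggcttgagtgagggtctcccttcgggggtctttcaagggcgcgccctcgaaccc
The LTR windows of Gm40826 and Gm10476 were identical at 226 of 290 aligned columns (77.9%), and each held 1 TATAA. Among 32851 RefSeq promoters, 24.9% held TATAA on either strand. CCAAT (37.4% of promoters) and TGACTCA, the AP-1 site (5.20%), were searched on both strands, and neither string of letters occurred in the 3 windows. In all, 34 RefSeq genes start in a member copy, 27 of them on its strand, with 24 in MLV relatives and 10 in VL30 copies. The counts of the whole copies that hold these starts differed widely: summed over the 9 libraries, the copy under the start of Gm42226 held 21581 estimated counts and the copy under Urml 497, against 8.27 for the copy under Gm40826 and 2 for that under Gm10476. These counts are not scaled by length, which was 7597 bases for the copy under Gm42226 and 2368 for that under Urml, while the last 2 are LTRs.

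Levels are in CPM, the counts of a feature relative to the library total after TMM scaling, and each library held 918879 to 1137257 counts. Fold changes are on the log2 scale with their standard error (SE) from edgeR's quasi-likelihood test, with p-values adjusted over all copies, names, loci or genes of the table (Benjamini-Hochberg). A change was called at an adjusted p under 0.05. Of the 1360 copies, 775 held under 5 counts over all libraries, and 150 (95 VL30, 55 MLV) passed the filter on low counts and were tested. These 150 held 92.3% of the members' counts. Most of the signal came from few places, since the leading locus held 18.6%, the leading 5 held 48.2% and the leading 20 held 80.5% of the counts in 654 loci. Near-identical copies share reads: 97.9% of the members' counts lay in copies with a value that is not whole, against 36.6% of all counts in the table, and 145 of the 150 tested copies were of this kind, so the split of reads between copies is uncertain.

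Taken over all members, the share of counts was lower in G4 Terc-/- ESCs than in both other groups. Members took 1.20% ± 0.0549 of the counts in G4 Terc-/- ESCs, 1.66% ± 0.0488 in G1 Terc-/- ESCs and 1.63% ± 0.0808 in WT ESCs (SD, n = 3 each). The exact two-sided permutation test gave p = 0.1 for G4 against WT, 0.1 for G4 against G1 and 0.8 for G1 against WT, where 0.1 is the smallest p that 3 against 3 libraries allow. The VL30 branch took 0.686% of the counts in G4, 1.08% in G1 and 0.940% in WT ESCs, and the MLV branch took 0.516% in G4, 0.579% in G1 and 0.690% in WT ESCs, with exact p = 0.1 for each pair of groups in each branch. G1 Terc-/- ESCs were thus above WT ESCs for VL30 and below them for MLV relatives: the log2 ratio of VL30 to MLV counts was 0.41 ± 0.07 in G4, 0.90 ± 0.07 in G1 and 0.45 ± 0.06 in WT ESCs (SD, n = 3 each), and its difference was -0.04 for G4 minus WT (exact p = 0.5) and 0.45 for G1 minus WT (exact p = 0.1). In bulk RNA, fewer cells of a type and less RNA per cell cannot be told apart.

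Repeats in exons let some marker genes be read, and these moved with the groups. Over all 4727 genes so tested, 24.4% were called higher and 24.0% lower in G4 over WT. Of 5 tested ESC markers (13 listed) 4 were called higher in G4 than in WT ESCs, and the 6 listed ones with repeats in exons had a summed level of 23026 to 27055 CPM in G4, 10613 to 11334 in G1 and 6787 to 7363 in WT libraries. The 4 were Nanog, Esrrb, Tdgf1 and Tfcp2l1, while Fbxo15 was not called (0.09 ± 0.14). Tdgf1 led this sum, with mean levels of 16535 CPM in G4, 6677 in G1 and 4329 in WT libraries. All 4 tested primitive endoderm markers of 11 listed (Gata4, Sox7, Pdgfra, Col4a2) were called lower, and the 6 listed ones with repeats in exons had a sum of 108 to 132 CPM in G4, 1931 to 2073 in G1 and 4468 to 4586 in WT libraries. Col4a2, read through 1 repeat copy, led this sum, with mean levels of 86.1 CPM in G4, 1589 in G1 and 3495 in WT libraries. The feeder fibroblast markers Col1a1 and Fn1, the only 2 tested of 14 listed, were both called higher in G4 over WT, and the 4 listed ones with repeats in exons had a sum of 115 to 117 CPM in G4, 74.8 to 94.9 in G1 and 38.6 to 61.4 in WT libraries. The part of these cell states in the results on proviruses was not tested.

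At the level of repeat names, 6 of the 8 fell and 1 rose in G4 Terc-/- against WT ESCs, with a median log2 fold change of -0.48. Over all 853 repeat names tested, 23.1% rose and 23.4% fell (median 0.00); scaled by library totals, the median of all names lay 0.14 higher, with 286 names called higher and 136 lower. MMVL30-int, the internal part of VL30, had 4027, 4578 and 4803 CPM in G4 Terc-/- libraries, 8708, 8550 and 7907 CPM in G1 Terc-/- libraries and 6697, 7614 and 6680 CPM in WT libraries. All G4 libraries were below all others, and the log2 fold change was -0.65 ± 0.06 for G4 over WT (adjusted p = 1.3e-08, edgeR) and -0.91 ± 0.06 for G4 over G1. It was the other way for G1 over WT, where MMVL30-int rose by 0.26 ± 0.06 (adjusted p = 0.0045, edgeR). Its LTR, RLTR6_Mm, had 622, 652 and 685 CPM in G4, 1316, 1228 and 1177 CPM in G1 and 958, 1203 and 1041 CPM in WT libraries, and fell by 0.71 ± 0.07 on the log2 scale in G4 over WT.

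All 3 MLV names fell in G4 over WT. MuLV-int, the internal part of MLV relatives, had 1943, 2035 and 2065 CPM in G4, 2580, 2383 and 2572 CPM in G1 and 3147, 3546 and 3252 CPM in WT libraries, which do not overlap between the groups. Its log2 fold changes were -0.72 ± 0.05 for G4 over WT, -0.40 ± 0.05 for G1 over WT and -0.32 ± 0.05 for G4 over G1, each called. A single copy on chromosome 5 held 91.9% of the MuLV-int counts. Without it, MuLV-int had 375, 373 and 320 CPM in G4, 116, 138 and 140 CPM in G1 and 145, 115 and 123 CPM in WT libraries, a rise of 1.48 in G4 over WT. Much of this rise lay in 1 further copy, in an intron of Def8. In the fit of single copies it had 178, 147 and 133 CPM in G4, 0, 0 and 0 CPM in G1 and 0, 2.09 and 0 CPM in WT libraries. RLTR4_MM-int (-0.40 ± 0.05) and RLTR4_Mm (-0.48 ± 0.06) also fell in G4 over WT. RLTR6-int, a further internal sequence of the VL30 branch, fell by 0.48 ± 0.05. Several of these falls turned when fewer copies were summed: over copies more than 5 kb from genes, RLTR4_MM-int had 0.15 and RLTR6-int 0.30 in G4 over WT, and MuLV-int (-0.37) and RLTR4_Mm (-0.21) were not called. The median of all 388 names tested over such copies was 0.43, with 153 called higher and 39 lower. All of these members thus stayed below that median. Over copies whose values are whole in every library, which hold few of the counts, MMVL30-int had 0.23, RLTR4_Mm 0.35 and RLTR6-int, G4 over WT, 0.0869, none of them called.

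The LTR RLTR6B_Mm was the name that rose. It had 185, 248 and 230 CPM in G4, 137, 137 and 163 CPM in G1 and 142, 172 and 135 CPM in WT libraries, with a log2 fold change of 0.57 ± 0.12 for G4 over WT (adjusted p = 0.00075, edgeR). A single LTR beside Zscan4e carried it: without that copy the levels were 149, 179 and 179 CPM in G4, 137, 137 and 163 CPM in G1 and 140, 172 and 135 CPM in WT libraries, and the change of 0.19 was not called. Over copies more than 5 kb from genes, RLTR6B_Mm had -0.62, which was not called. RLTR6C_Mm had 157, 209 and 218 CPM in G4, 321, 314 and 271 CPM in G1 and 219, 246 and 192 CPM in WT libraries, so that G1 libraries were above the rest while G4 and WT libraries overlapped (-0.16 ± 0.12, adjusted p = 0.32, edgeR). RLTR6C_Mm, G4 over WT, was called lower over copies more than 5 kb from genes (-0.7012) and higher over whole-valued copies (1.04).

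Between G1 Terc-/- and WT ESCs, 2 of the 8 names rose and 3 fell, where 5.51% of all names rose and 6.33% fell. MMVL30-int and RLTR6C_Mm (0.47 ± 0.12) rose, and MuLV-int, RLTR4_Mm (-0.19 ± 0.06) and RLTR6-int (-0.17 ± 0.05) fell. The calls of RLTR4_Mm, RLTR6-int and RLTR6C_Mm were near the threshold (libraries are named by group and number). RLTR6C_Mm was not called without WT 3 (0.37), G1 1 (0.43) or G1 2 (0.44), RLTR4_Mm not without WT 2 (-0.18), WT 3 (-0.21), G1 2 (-0.14), G1 3 (-0.18) or G4 3 (-0.19), and RLTR6-int not without WT 2 (-0.18), WT 3 (-0.17), G1 1 (-0.18), G1 2 (-0.17), G1 3 (-0.15) or G4 3 (-0.17). RLTR6-int, G1 over WT, turned to 0.12 over copies more than 5 kb from genes and to 0.0756 over whole-valued copies, with no call. The medians of all names so summed were 0.18 and 0.01. Against G1 Terc-/- ESCs, 7 names fell and 1 rose in G4 Terc-/- ESCs, where 23.0% of all names fell and 19.5% rose. There MuLV-int (0.0236) and RLTR6-int (0.19) turned over copies more than 5 kb from genes, and MMVL30-int (0.14), RLTR4_Mm (0.80), RLTR6-int (0.0113) and RLTR6C_Mm (0.0513) over whole-valued copies, with no call. In G4 over G1 the medians of all names were 0.23 over copies more than 5 kb from genes and -0.02 over whole-valued copies. G4 and G1 ESCs are set against the same WT libraries, so these comparisons share their controls.

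**Figure D1:**
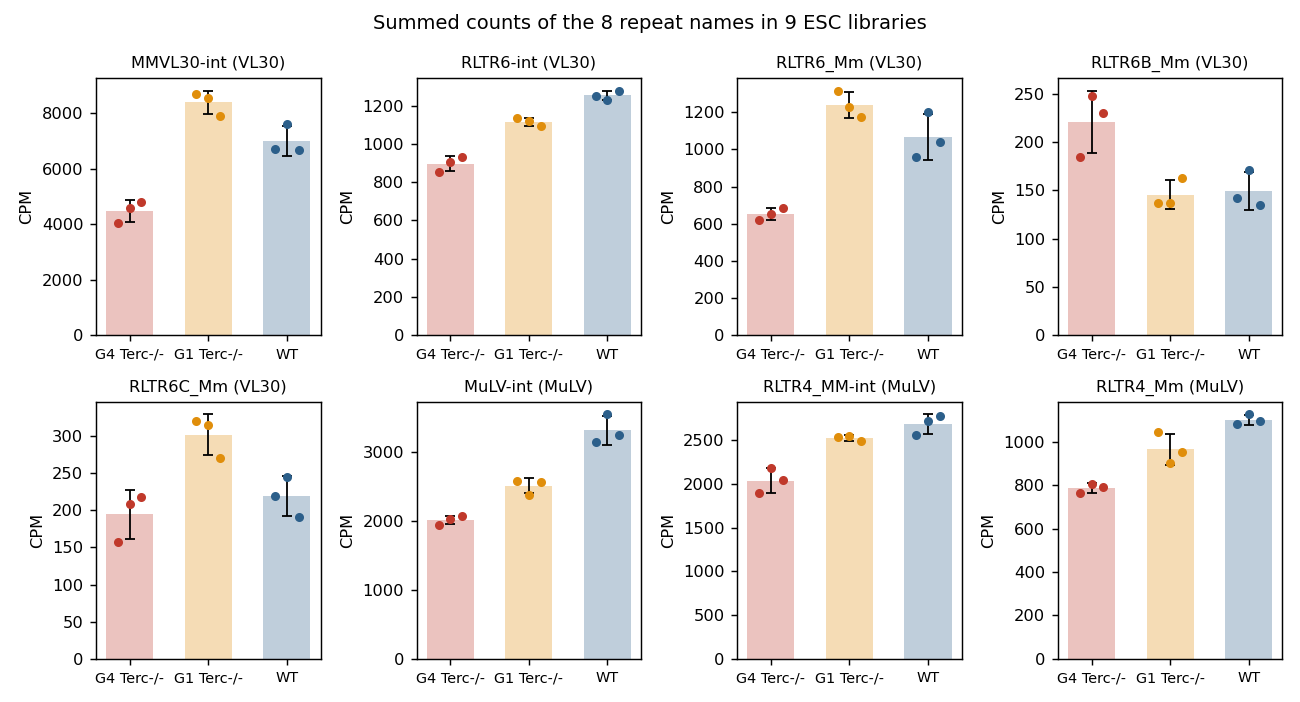
Summed counts of the 8 repeat names in CPM, with a panel for each name. Points are libraries, bars are group means and lines are SD over 3 libraries; G4 libraries lie below WT libraries for 6 names and above them for RLTR6B_Mm.

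Among single copies, falls again outnumbered rises in G4 Terc-/- ESCs. Between G4 Terc-/- and WT ESCs, 17 of the 150 tested copies rose and 67 fell (median -0.59), against 21.3% higher and 21.3% lower among all 13278 copies tested (median -0.02). Called and past a 2-fold change there were 14 that rose and 49 that fell, where 15.5% of all copies tested rose and 15.1% fell past this line. VL30 copies made up most of the falls, with 11 of 95 higher and 51 lower (median -0.81), while among MLV copies 6 of 55 rose and 16 fell (median -0.21). For G1 over WT, 13 copies rose and 12 fell (median 0.02), where 2.41% of all copies rose and 4.36% fell; 12 of the 13 that rose were VL30 copies. Without WT 1 or WT 3 the number that rose was 8, and without G1 2 the number that fell was 7. Calls over all copies were fewer there too: 242 of 15351 rose without WT 1 and 210 of 15061 without WT 3, against 320 of 13278. Falls over all copies were 433 of 15033 without G1 2, against 579 of 13278. For G4 over G1, 12 copies rose and 65 fell (median -0.55), against 19.0% and 19.2% of all copies.

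The calls of VL30 copies are given next by place, and the difference between places was not tested. Of 36 tested VL30 copies over 5 kb from any gene, 25 fell in G4 over WT and the others were not called (median -1.43), where among all 997 copies so placed 25.2% rose and 30.4% fell. Within 5 kb of a gene, 17 of 25 VL30 copies fell and 1 rose (median -1.30), where 21.7% of all copies so placed fell and 27.1% rose. In exons, 6 of 11 VL30 copies fell and 1 rose (median -0.59), where 21.8% of all exonic copies fell and 20.5% rose. In introns 9 of 23 were higher and 3 lower (median 0.33), where 19.5% of all intronic copies rose and 17.7% fell. Copies in 1 provirus share its place and reads, so these are not independent, and of the 9 intronic copies that rose 4 belong to the locus in 1700030N03Rik on chromosome 19 and 3 to a locus in Abi1 on chromosome 2. Among MLV copies, 11 of 30 in introns fell and 4 rose, and 2 of 9 over 5 kb from genes fell and 1 rose. In 26 loci with a tested LTR and a tested internal copy, the medians of both kinds had the same sign in 22 for G4 over WT.

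**Figure D2:**
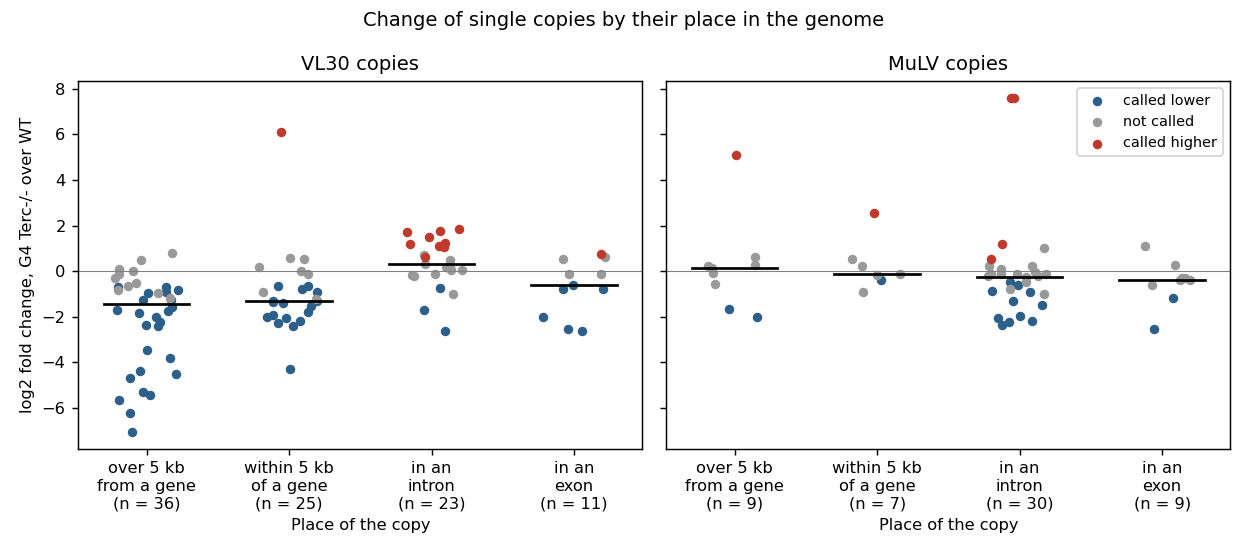
Log2 fold change of each tested copy in G4 Terc-/- over WT ESCs, by its place relative to annotated genes, for VL30 copies (left) and MLV copies (right). Points are copies coloured by their call, and bars are medians, which run from -1.43 for VL30 copies over 5 kb from genes to 0.33 for those in introns; values of copies with no counts in a group are fitted and are not bounds.

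**Figure D3:**
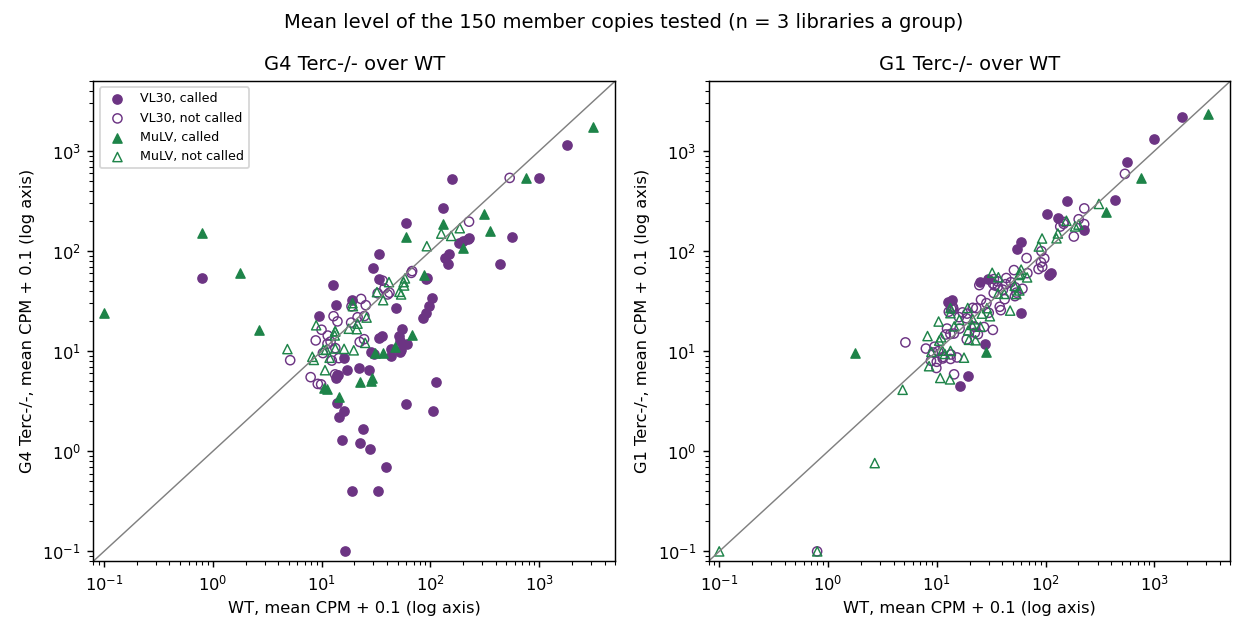
Mean CPM of the 150 tested copies in G4 Terc-/- (left) and G1 Terc-/- ESCs (right) on the vertical axis against WT ESCs on the horizontal axis, on log axes after adding 0.1 CPM. Filled symbols are called copies; on the left 67 called copies lie below the line of equal level and 17 above it, on the right 12 and 13.

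Summed into loci, 14 of 98 tested loci rose and 38 fell in G4 over WT, where 21.3% of all loci so built rose and 21.2% fell. The VL30 loci split into 8 of 64 that rose and 28 that fell, and the MLV loci into 6 of 33 and 10. The most abundant locus was an MLV relative on chromosome 5 (chr5:23700579-23709245, minus strand), which lies in AI506816, a processed transcript on its strand, and in which RefSeq starts the transcript Gm42226. It had 2049, 1989 and 2057 CPM in G4, 2790, 2566 and 2807 CPM in G1 and 3557, 3746 and 3693 CPM in WT libraries, 3 levels without overlap. The log2 fold changes were -0.85 ± 0.06 for G4 over WT, -0.43 ± 0.06 for G1 over WT and -0.42 ± 0.06 for G4 over G1 (adjusted p = 3.0e-11, 3.8e-05 and 7.5e-06, edgeR). The 3 other repeats tested within 20 kb had a median change of -0.01 in G4 over WT, and no change among them was called. Its MuLV-int copy (chr5:23701114-23708710) alone fell by 0.86 ± 0.07 in G4 over WT.

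The next most abundant loci were VL30 proviruses of typical build, with an MMVL30-int copy between RLTR6 LTRs. The locus chr11:86811742-86816395 (minus strand), whose internal copy lies 4495 bp from Dhx40, had 1265, 1300 and 1401 CPM in G4, 2676, 2601 and 2463 CPM in G1 and 1999, 2182 and 2091 CPM in WT libraries. It fell by 0.66 ± 0.07 in G4 over WT and by 0.96 ± 0.07 in G4 over G1, and its rise of 0.30 ± 0.07 in G1 over WT was not called without WT 1 (0.26) or G1 1 (0.25). The locus chr2:75638103-75642945 (plus strand, internal copy 5290 bp from Gm13655) had the same order, with 643, 647 and 684 CPM in G4, 1627, 1657 and 1519 CPM in G1 and 1197, 1293 and 1182 CPM in WT libraries. There the changes were -0.89 ± 0.08 for G4 over WT, 0.39 ± 0.08 for G1 over WT and -1.28 ± 0.08 for G4 over G1.

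A VL30 locus of like build showed no called difference. At chr13:55184447-55189240 (plus strand, internal copy 16266 bp from Fgfr4, a growth factor receptor gene) there were 645, 610 and 699 CPM in G4, 749, 700 and 641 CPM in G1 and 647, 695 and 576 CPM in WT libraries, which overlap. None of its contrasts was called, and the estimate for G4 over WT was 0.03 ± 0.09. The MLV locus in an intron of Snx6, on the other strand (chr12:54774224-54783205), was lower in both Terc-/- groups: it had 500, 590 and 559 CPM in G4, 544, 530 and 556 CPM in G1 and 722, 794 and 779 CPM in WT libraries. Its changes were -0.48 ± 0.09 for G4 over WT and -0.49 ± 0.09 for G1 over WT, and that of G4 over G1 was 0.02 ± 0.09 (adjusted p = 0.90, edgeR).

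Several VL30 loci were nearly silent in G4 Terc-/- ESCs. The locus that holds the start of Urml (chr13:68232872-68238396, minus strand), 50003 bp from the nearest GENCODE gene, AA414992, had 3.29, 7.30 and 1.79 CPM in G4, 113, 98.4 and 94.7 CPM in G1 and 178, 187 and 206 CPM in WT libraries. G4 libraries lay far below the others, with changes of -5.48 ± 0.25 for G4 over WT, -0.90 ± 0.15 for G1 over WT and -4.57 ± 0.27 for G4 over G1. The MMVL30-int copy in which the Urml window printed above lies (chr13:68233440-68235807) held 8.72 counts in G4, 173 in G1 and 315 in WT libraries. Both other repeats tested within 20 kb fell as well, with a median of -4.92. On chromosome 12 the locus chr12:17870627-17875559 (minus strand, internal copy 7220 bp from Gm49326) had 5.49, 4.56 and 5.38 CPM in G4, 62.7, 74.5 and 67.2 CPM in G1 and 106, 150 and 136 CPM in WT libraries, and fell by 4.64 ± 0.25 in G4 over WT and by 0.94 ± 0.16 in G1 over WT. Its RLTR6B_Mm LTR (chr12:17870627-17871187) had 0.5 counts in G4, 13.4 in G1 and 48.4 in WT libraries, so RLTR6B_Mm LTRs moved both ways.

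The VL30 locus chr8:33713744-33718745 (plus strand, internal copy 12290 bp from 1700104B16Rik) had 1.10, 0 and 1.79 CPM in G4, 16.7, 11.5 and 11.01 CPM in G1 and 34.4, 27.2 and 28.8 CPM in WT libraries. Its change was -4.80 ± 0.53 for G4 over WT. For G1 over WT it was -1.20 ± 0.34 (adjusted p = 0.029, edgeR), a call that was absent without WT 1 (-1.10), WT 2 (-1.28), WT 3 (-1.26), G1 2 (-1.11) or G1 3 (-1.11). Beside Oasl2, an interferon-induced gene, the VL30 locus chr5:114889925-114895124 (plus strand, internal copy 2411 bp away) had 2.20, 4.56 and 8.97 CPM in G4, 23.0, 28.4 and 47.4 CPM in G1 and 65.7, 73.1 and 64.3 CPM in WT libraries. It fell by 3.61 ± 0.34 in G4 over WT, and by 1.05 ± 0.25 in G1 over WT, a call lost without G1 1 (-0.88) or G1 2 (-0.96). The 2 other repeats tested within 20 kb fell too (median -1.97), as they did at Urml. The VL30 locus chr17:35478209-35483162 (plus strand), whose internal copy lies 5773 bp from the class I histocompatibility gene H2-Q10, had 12.1, 10.03 and 9.87 CPM in G4, 56.4, 60.3 and 47.4 CPM in G1 and 58.4, 71.0 and 60.5 CPM in WT libraries, and fell by 2.57 ± 0.24 in G4 over WT with no call in G1 over WT (-0.20 ± 0.19). Its MMVL30-int copy (chr17:35480336-35482627) had 2 counts in G4, 77.2 in G1 and 114 in WT libraries.

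The order of the groups differed between loci. The VL30 locus chr18:89835529-89840570 (plus strand, internal copy 68312 bp from Dok6) was highest in G1 Terc-/- ESCs, with 48.3, 54.7 and 73.6 CPM in G4, 386, 434 and 380 CPM in G1 and 143, 197 and 214 CPM in WT libraries. It fell by 1.64 ± 0.16 in G4 over WT and rose by 1.11 ± 0.14 in G1 over WT, and fell by 2.75 ± 0.16 in G4 over G1. Outside the naming rule and chosen after its values were seen, the VL30 locus chr19:4061378-4066369 (minus strand) had a like order at a higher level, with 142, 160 and 184 CPM in G4, 927, 892 and 870 CPM in G1 and 596, 740 and 626 CPM in WT libraries. The MLV locus in the lincRNA AC102496.1 (chr18:30266512-30272200, plus strand) had 27.5, 28.3 and 27.8 CPM in G4, 95.02, 76.3 and 119 CPM in G1 and 140, 135 and 117 CPM in WT libraries. It fell by 2.22 ± 0.19 in G4 over WT, and the change of -0.44 ± 0.16 in G1 over WT was not called (adjusted p = 0.096, edgeR; called without G1 3, at -0.63).

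Other loci rose in G4 Terc-/- ESCs. The VL30 locus in an intron of the lincRNA 1700030N03Rik, on the opposite strand (chr19:3083397-3087484), had 755, 918 and 922 CPM in G4, 563, 524 and 489 CPM in G1 and 246, 299 and 244 CPM in WT libraries. It rose in both Terc-/- groups, by 1.72 ± 0.11 in G4 over WT and by 1.00 ± 0.11 in G1 over WT, and G4 was above G1 by 0.72 ± 0.10. Outside the naming rule and chosen after its values were seen, the VL30 locus in an intron of Abi1, on the same strand (chr2:23009729-23015044), had 402, 370 and 419 CPM in G4, 315, 311 and 329 CPM in G1 and 206, 209 and 212 CPM in WT libraries, with a rise of 0.92 ± 0.10 in G4 over WT. An MLV locus in an intron of Def8, on the opposite strand (chr8:123425804-123434298), had 221, 183 and 159 CPM in G4, 0, 0 and 0 CPM in G1 and 0, 2.09 and 0 CPM in WT libraries. Its MuLV-int copy (chr8:123426327-123434006) held 471 counts in G4, 0 in G1 and 2 in WT libraries. Against a floor of 3 counts over the group this copy was 151-fold higher in G4 than in G1 (lower counting limit 122). The RLTR4_Mm LTR at its 3′ end (chr8:123426088-123426326) held 73.9 counts in G4 and 0 in both G1 and WT libraries. Against the same floor this LTR was 23.7-fold higher in G4 than in G1 (lower counting limit 18.8). It was 23.4-fold higher in G4 than in WT (lower counting limit 18.6). All 3 G4 libraries gave counts here, and no other repeat within 20 kb passed the filter.

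Other MLV loci that rose stood apart from the leading ones by their low level. The locus chr1:191933613-191942593 (plus strand, internal copy 21063 bp from Slc30a1, a zinc exporter gene) had 72.5, 75.7 and 68.2 CPM in G4, 9.40, 7.98 and 23.1 CPM in G1 and 0, 3.13 and 11.5 CPM in WT libraries. It rose by 3.80 ± 0.43 in G4 over WT, and the change in G1 over WT was 1.36 ± 0.57 (adjusted p = 0.17, edgeR; called without WT 3, at 2.94). Its RLTR4_MM-int copy alone was called higher in G1 over WT, by 2.35 ± 0.66 (adjusted p = 0.029, edgeR). This copy had 8.35, 3.54 and 16.5 CPM in G1 and 0, 3.13 and 1.92 CPM in WT libraries. The locus chr13:98986275-98995255 (minus strand), in an intron of the lincRNA Gm35279 on the other strand, had 18.7, 27.4 and 29.6 CPM in G4, 5.22, 2.66 and 3.30 CPM in G1 and 0, 1.04 and 6.72 CPM in WT libraries, a rise of 3.18 ± 0.56 in G4 over WT. The RLTR6B_Mm LTR that led its name (chr7:11305243-11305794, minus strand) lies 584 bp beyond the end of Zscan4e, a gene of the Zscan4 family known for bursts of expression in ESCs, on the same strand. It had 39.6, 69.4 and 52.1 CPM in G4, 0, 0 and 0 CPM in G1 and 2.08, 0 and 0 CPM in WT libraries, or 170 counts in G4, 0.25 in G1 and 2.24 in WT. The ratio of G4 to WT counts was 80.7 (95% counting interval 21.997 to 672). Against a floor of 3 counts over the group the LTR was 54.4-fold higher in G4 than in G1 (lower 95% counting limit 43.8). Both other repeats tested within 20 kb rose too. Usp17lc, the only one of 9 listed markers of 2-cell-like cells that could be tested, had 13.9, 12.4 and 9.55 CPM in G4 libraries and 0 CPM in all G1 and WT libraries, and its part in these levels was not tested.

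**Figure D4:**
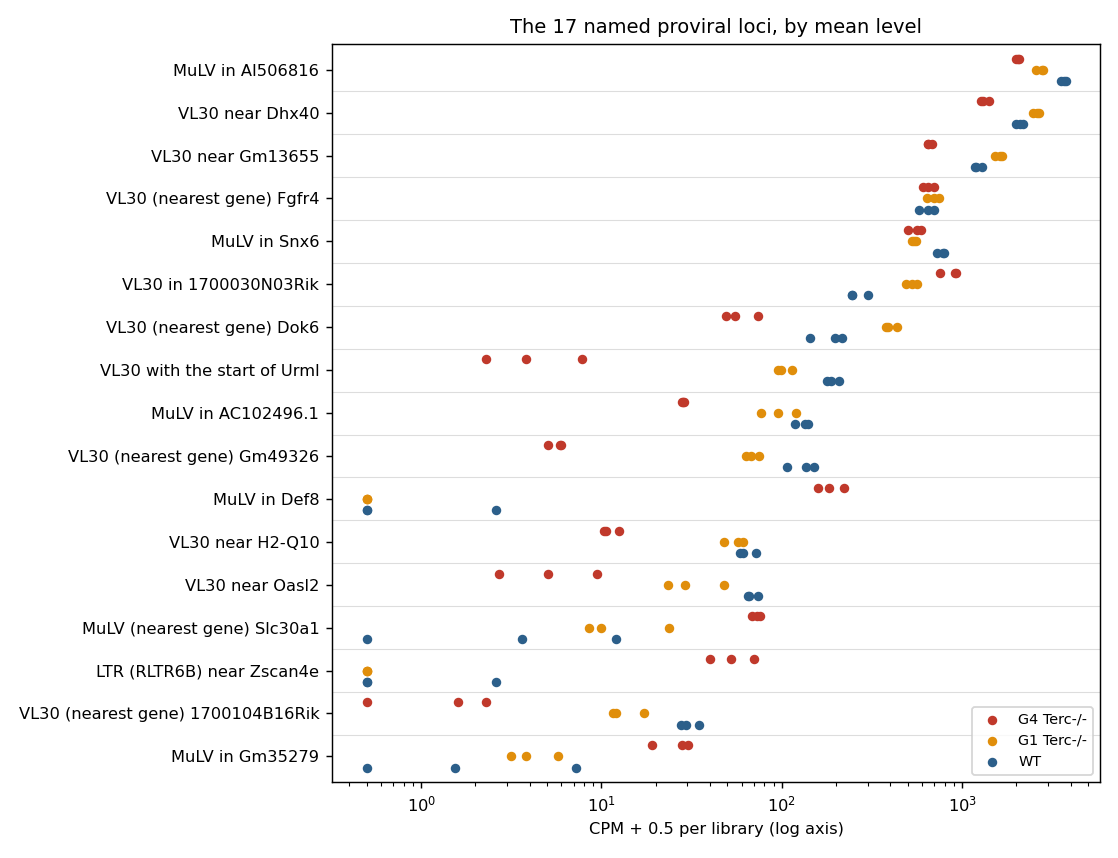
Level of the 17 named loci in each library, as CPM plus 0.5 on a log axis, ordered by mean level. G4 points lie left of WT points at loci such as that with the start of Urml (1.79 to 7.30 against 178 to 206 CPM) and right of them at the locus in Def8 (159 to 221 against 0 to 2.09 CPM).

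Genes that act on retroviruses could be read in part, through repeats in their exons, with 4727 genes tested, of which 24.4% rose and 24.0% fell in G4 over WT. Slc7a1, an amino acid transporter that is the receptor of ecotropic MLV, had 275, 319 and 271 CPM in G4, 584, 630 and 553 CPM in G1 and 1127, 979 and 942 CPM in WT libraries. It fell without overlap between groups, by 1.81 ± 0.09 in G4 over WT and by 0.78 ± 0.08 in G1 over WT. Slc20a1, whose human counterpart is the receptor of gibbon ape leukaemia virus, had 68.3, 51.2 and 40.8 CPM in G4, 111, 97.2 and 99.3 CPM in G1 and 74.0, 74.0 and 81.5 CPM in WT libraries, and its fall of 0.53 ± 0.19 in G4 over WT was not called without WT 3 (-0.50), G4 2 (-0.50) or G4 3 (-0.34). Of 5 listed receptors 3 were tested, and the last of them, Xpr1, reached at most 14.9 CPM and was not called (0.78 ± 0.55).

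Of 9 tested genes of 20 listed for restriction and sensing, 4 rose in G4 over WT (list median 0.62; median of all genes 0.01). Apobec3, a cytidine deaminase packed into retroviral particles, had 442, 425 and 470 CPM in G4, 94.2, 78.9 and 82.4 CPM in G1 and 72.9, 117 and 96.9 CPM in WT libraries. G4 libraries were well above the rest, by 2.22 ± 0.13 over WT, while G1 and WT libraries overlapped (-0.17 ± 0.15). Cgas, the sensor of cytosolic DNA (1.35 ± 0.34), Mov10, an RNA helicase (1.14 ± 0.27), and Samhd1, which lowers the pool of nucleotides (0.62 ± 0.19, not called without WT 3, at 0.47), rose as well. Fv1, a restriction gene of retroviral origin, was not called (-0.29 ± 0.16). A pair of RLTR4_Mm fragments lies in an Apobec3 exon on the opposite strand, too low to be tested: the fragment chr15:79895563-79895863 had 6, 4.1 and 3 counts in G4, 0, 0 and 1 counts in G1 and 0, 0 and 0 counts in WT libraries.

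Genes listed for the silencing of retroviruses moved both ways. Of 25 tested genes of 44 listed, 11 rose and 4 fell in G4 over WT (list median 0.25). Not all of the 11 are silencers. They include Tet1 (0.90 ± 0.11) and Tet2 (0.87 ± 0.24), whose enzymes act against DNA methylation. Suv39h1, a methyltransferase of histone H3 lysine 9, had 86.5, 86.6 and 75.5 CPM in G4, 272, 280 and 270 CPM in G1 and 330, 385 and 437 CPM in WT libraries, and fell by 2.22 ± 0.12. Cbx3, a heterochromatin protein, fell by 2.16 ± 0.58 at a level of at most 15.8 CPM. Rex2, a zinc finger protein of the KRAB type (2.48 ± 0.35), H3f3a, a gene of histone H3.3 (1.57 ± 0.39), and Smarcad1, a chromatin remodeller (1.06 ± 0.25), rose. The genes best known for MLV are outside the naming rule and were chosen for that role. Zfp809, which binds the primer site of MLV, had 251, 256 and 288 CPM in G4, 315, 302 and 293 CPM in G1 and 367, 367 and 377 CPM in WT libraries, a fall of 0.48 ± 0.10 in G4 over WT. Trim28 rose by 0.94 ± 0.30, not called without G4 1 (0.78), and Setdb1 was not called (0.25 ± 0.14). Of the transcription factors of VL30 and MLV LTRs 2 of 18 could be tested, Junb (0.31 ± 0.18, adjusted p = 0.14, edgeR) and Sp1 (-0.11 ± 0.10, adjusted p = 0.42, edgeR), and of the genes of retroviral RNA export Sfpq, Nono and Srsf3 of 5 were tested, with estimates of 0.32 ± 0.46, -0.45 ± 0.30 and 0.39 ± 0.21. A gene read through repeats in its exons is not its full transcript level.

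**Figure D5:**
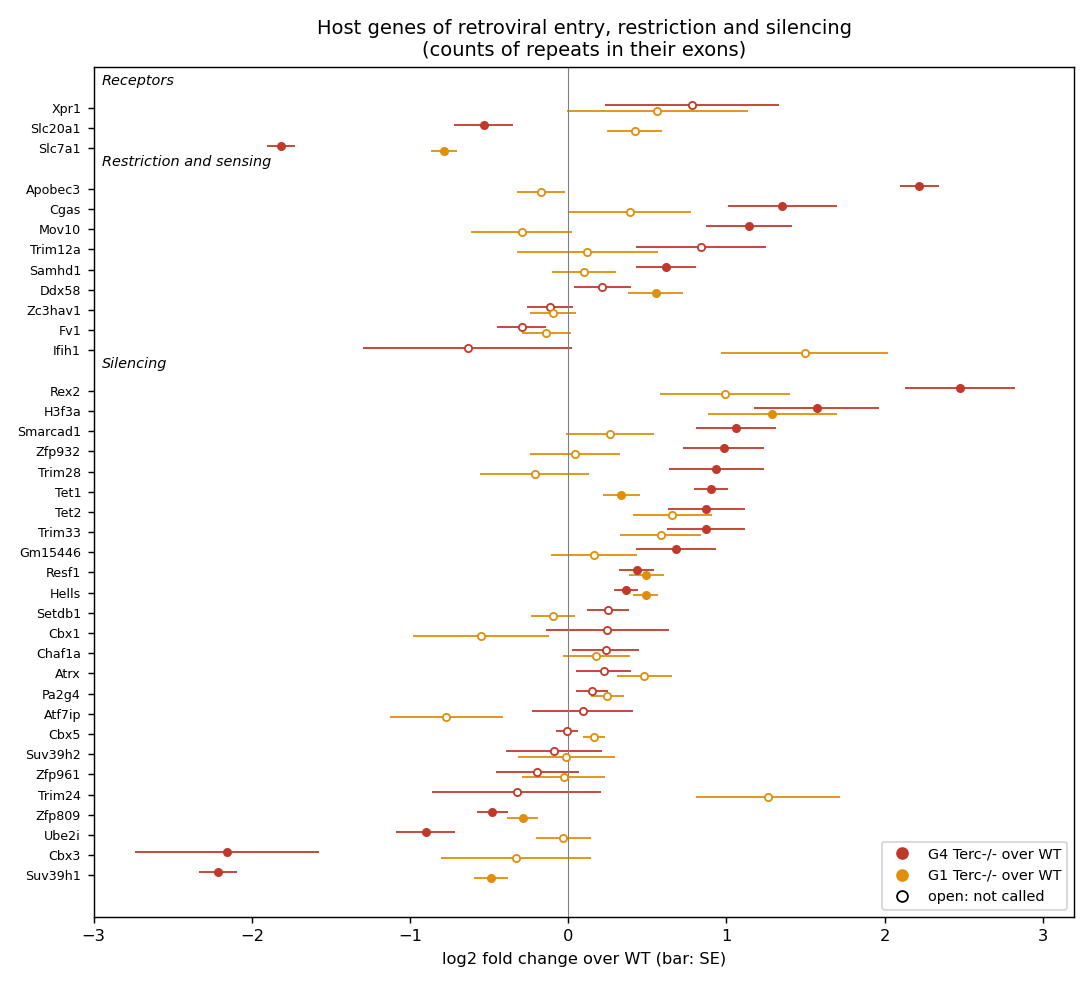
Log2 fold change of tested receptor, restriction and silencing genes in G4 Terc-/- and G1 Terc-/- over WT ESCs, read through repeats in their exons. Points are estimates and lines are SE, filled where called; Slc7a1 lies at -1.81 and Apobec3 at 2.22 in G4 over WT.

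The closest relatives in the table are the GLn elements and the LTRIS and MuRRS elements, which are gammaretroviral repeats too. GLn elements (1254 copies) took 1.53% ± 0.0327 of the counts in G4, 4.22% ± 0.117 in G1 and 4.35% ± 0.108 in WT ESCs, and LTRIS and MuRRS elements (1503 copies) took 0.212% ± 0.00901 in G4, 0.292% ± 0.00177 in G1 and 0.353% ± 0.00937 in WT ESCs (SD, n = 3 each). The log2 ratio of VL30 and MLV counts to GLn counts was higher by 1.06 in G4 than in WT ESCs and by 0.99 in G4 than in G1 ESCs (exact p = 0.1 each), and by 0.07 in G1 than in WT ESCs (exact p = 0.2). Their log2 ratio to LTRIS and MuRRS counts was higher than in WT ESCs by 0.30 in G4 and by 0.30 in G1 ESCs (exact p = 0.1 each), and G4 and G1 ESCs differed by -0.01 (exact p = 1).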

How the data were processed

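Per the labels, libraries were made from total RNA with the TruSeq RNA kit, and the submitters' processing notes name mm10, featureCounts, STAR 2.5.3a and FastQC 0.11.9. The values used are estimated counts per single repeat copy as deposited by the authors; how reads shared between copies were divided is not given in the sources used here. Columns named Control were taken as WT. A normalized table was not used. The table held 623916 copies and 918879 to 1137257 counts a library, and replicate libraries differed beyond sampling noise.

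Estimated counts were rounded, filtered with filterByExpr, scaled with TMM and fitted over all 9 libraries without a block (edgeR 4.0.16, R 4.3.3; SE from log2 fold change and F), for copies, repeat names, loci and genes (sums over non-member copies with at least 0.5 of their length in GENCODE M21 exons). Coordinates are 1-based. Shares and ratios were compared with exact permutation tests. The fit was also run on simulated counts drawn for each copy on its own, which cannot test the split of reads between copies.

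The members and lists were chosen with earlier results of these data known. All repeat names are named, and copies called without overlap between groups: 8 each way in G4 over WT, 4 each way in the other contrasts, and the 5 most abundant, with their loci, and per list up to 5 genes called in G4 over WT. Other settings were DESeq2 1.42.0 and its size factors, library totals, a minimum of 5 counts, a replicate block, leaving out libraries or leading copies, whole-valued copies, copies over 5000 bp from genes and a 10000 bp gap for loci. Counting intervals cover counting error only. Floors set a group without counts after rounding to 3 counts and leave out the counting error of the other group.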

Additional observations from a re-analysis of the deposited data

How the results depend on the processing

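Counts of called copies, names and loci in G4 over WT and G4 over G1 stayed within 1.5 times under the DESeq2 Wald test, its size factors, library totals, the replicate block and, for loci, a gap of 10000 bp; the cause of the changes listed next was not tested beyond the copies that each setting removes. A minimum of 5 counts gave 29 copies higher in G4 over WT, and 7 higher and 7 lower in G1 over WT. This setting tested 184352 copies of the table in place of 13278. Of these, 3484 were higher in G4 over WT, and 184 higher and 449 lower in G1 over WT. Replicate numbers did not pair the libraries (correlations of deviations from -0.0153 to 0.0208); with the number as a block, 1 name was lower in G1 over WT in place of 3, and other counts of calls stayed within 1.5 times, such as 65 copies lower in G4 over WT. Of all 853 names, 43 were lower in G1 over WT with the block, in place of 54. Of all 13278 copies, 2734 were lower in G4 over WT with the block, in place of 2826. Leaving out each library in turn gave 17 to 20 copies higher and 66 to 79 lower in G4 over WT, 8 to 15 and 7 to 13 in G1 over WT and 11 to 17 and 66 to 74 in G4 over G1. Of the 14779 to 15744 copies tested in all, 2535 to 3170 were higher and 2576 to 3276 lower in G4 over WT. In G1 over WT these were 207 to 314 and 433 to 601, and in G4 over G1 2187 to 2916 and 2162 to 2762. For names, leaving out libraries gave 1 higher and 6 lower in G4 over WT, 1 to 3 higher and 1 to 3 lower in G1 over WT and 1 higher and 7 lower in G4 over G1, and for loci 11 to 21 and 36 to 40 in G4 over WT, 7 to 12 and 6 to 10 in G1 over WT and 11 to 17 and 35 to 42 in G4 over G1. Of the 857 to 869 names tested in all, 175 to 201 were higher and 180 to 201 lower in G4 over WT. In G1 over WT these were 27 to 50 and 25 to 73, and in G4 over G1 147 to 185 and 162 to 191. Of the 14717 to 15682 loci tested in all, 2537 to 3167 were higher and 2547 to 3245 lower in G4 over WT. In G1 over WT these were 207 to 313 and 433 to 599, and in G4 over G1 2193 to 2915 and 2137 to 2781. With libraries left out in the same way, the difference in share of counts in all members, G4 minus WT, ran from -0.4628 to -0.3835 percentage points, the share of counts in all members, G1 minus WT, from -0.0064 to 0.0729 and the share of counts in all members, G4 minus G1, from -0.4806 to -0.4262, the log2 ratio to GLn counts from 1.04 to 1.09 (G4 minus WT), 0.04 to 0.10 (G1 minus WT) and 0.97 to 1.02 (G4 minus G1), and that to LTRIS counts from 0.26 to 0.32 (G4 minus WT), 0.28 to 0.32 (G1 minus WT) and -0.04 to 0.02 (G4 minus G1).

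Copies over 5000 bp from genes alone gave 1 copy higher and 27 lower in G4 over WT, 3 and 1 in G1 over WT and 1 and 28 in G4 over G1, and for names 0 higher and 3 lower in G4 over WT, 1 and 0 in G1 over WT and 0 and 3 in G4 over G1. Among them RLTR4_MM-int (0.15), RLTR6-int (0.30) and RLTR6B_Mm (-0.62) turned in G4 over WT, RLTR6-int in G1 over WT (0.12), and MuLV-int (0.0236) and RLTR6-int (0.19) in G4 over G1. Of all 997 copies so placed, 229 were higher and 272 lower in G4 over WT, 33 and 45 in G1 over WT and 211 and 283 in G4 over G1. Of all 388 names tested there, 153 were higher and 39 lower in G4 over WT (median 0.43). For G1 over WT they were 27 and 14 (median 0.18), and for G4 over G1 98 and 42 (median 0.23). Copies with whole values hold what is left beside the 97.9% of counts in the others. They gave 1 copy higher and 1 lower in G4 over WT, 0 and 0 in G1 over WT and 0 and 1 in G4 over G1, and for names 2 and 1 in G4 over WT, 0 and 0 in G1 over WT and 0 and 1 in G4 over G1. Of all 8924 whole-valued copies tested, 1825 were higher and 1823 lower in G4 over WT, 177 and 385 in G1 over WT and 1664 and 1596 in G4 over G1. Of all 837 names so summed, 141 were higher and 160 lower in G4 over WT, 15 and 24 in G1 over WT and 115 and 149 in G4 over G1. There MMVL30-int (0.23) and RLTR4_Mm (0.35) turned in G4 over WT, as did RLTR6-int, G4 over WT, to 0.0869 and RLTR6-int, G1 over WT, to 0.0756, and MMVL30-int (0.14), RLTR4_Mm (0.80), RLTR6-int (0.0113) and RLTR6C_Mm (0.0513) in G4 over G1. The difference in share was 0.0060 for G4 minus WT and 0.0035 for G4 minus G1, the log2 ratio to GLn counts differed by 0.34 (G4 minus WT), 0.18 (G1 minus WT) and 0.16 (G4 minus G1), and that to LTRIS counts by 0.40 (G1 minus WT) and -0.14 (G4 minus G1).

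Chosen after the data were seen, each name was also summed without its leading copy: 3 names were then higher in G4 over WT, 0 were lower in G1 over WT, and 2 were higher and 4 lower in G4 over G1. Of all 853 names in that fit, 199 were higher in G4 over WT, 48 lower in G1 over WT, and 167 higher and 191 lower in G4 over G1. MuLV-int turned to 1.48 in G4 over WT and 1.43 in G4 over G1, with MuLV-int, G1 over WT, at 0.0446 and RLTR6C_Mm, G4 over G1, at 0.0597. The leading copy of all members also moved the difference in share, to -0.295 for G4 minus WT without it. Without the copy that rose most, 0 member names were higher in G4 over WT and in G4 over G1, where 196 and 165 of all 853 names were higher. Depth limits the 775 copies under 5 counts, for which a difference was not detectable.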
